A study of Mus musculus with 4 samples.

Results

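Zinc handling was followed through 10 genes: the metallothioneins Mt1 and Mt2, the zinc-sensing transcription factor Mtf1, the ZnT family transporters Slc30a1, Slc30a2, Slc30a4 and Slc30a5, which move zinc out of the cytosol, and the ZIP family transporters Slc39a4, Slc39a5 and Slc39a7, which move it in. The members were all probe sets whose platform annotation names one of these genes alone, 16 of the 45101 probe sets on the array, and the 10 genes were taken from 18193 genes named in this way. For each gene the probe set with the highest mean over the 4 arrays stands first. RNA came from Paneth cells cut by laser capture from frozen small intestine of male NMRI mice aged 8 weeks. The conventionalized mice had been germ-free and then lived for 10 days with an intestinal flora taken from a mouse raised conventionally, and the germ-free mice were kept without microbes until they were killed. Each group was 1 pool of equal RNA amounts from 3 mice, and 2 aliquots of 10 ng from that pool were amplified and hybridized to an array each. The 2 arrays of a group are thus repeat amplifications of 1 pool, so every p-value and standard error below measures amplification and array error and not the spread between mice.

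Paneth cells sit at the base of small intestinal crypts and pack antimicrobial proteins into granules that also hold much zinc, which is why zinc stains and zinc chelators have long been used to mark or injure them. Free zinc in a cell is kept low by metallothioneins, small cysteine-rich proteins that bind zinc and copper, and by transporters that export it or store it in vesicles and granules. Excess zinc activates Mtf1, which binds short metal response elements in the promoters of Mt1, Mt2 and Slc30a1 and raises their transcription. Glucocorticoids and acute phase cytokines also induce the metallothioneins.

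On the 4 arrays the deposited signals were linear intensities with the same trimmed mean. Across the 22491 probe sets tested, duplicates correlated at 0.779 in the conventionalized and 0.869 in the germ-free group (Pearson, over probe sets, which do not count as independent replicates). Conventionalized replicate 2 stood apart, with correlations of 0.754 to 0.779 to each other array, while conventionalized replicate 1 correlated at 0.890 with germ-free replicate 2. The conventionalized pair of arrays ran on fluidics station 2 and the germ-free pair on station 1, and the effect of station cannot be told apart from that of group. The captured material carried strong Paneth cell signal beside that of other cells. The summed signal of 8 Paneth markers was 282246 and 644125 on the conventionalized arrays, against 66160.6 and 147556 on the germ-free arrays. For 9 enterocyte markers it was 107173 and 255271, against 90544.3 and 166621. For 6 goblet markers it was 93090.8 and 180291, against 44283.5 and 82796.1. Such sums do not measure shares of cells. All 8 Paneth markers had a log2 difference above 0, with Mptx1 alone called and 5 at an unadjusted limma p under 0.05. Their median was 1.91, or 1.18 after quantile normalization. The highest signal of any probe set also differed between arrays, at 154027.9 and 370345.5 in conventionalized and 59887.9 and 63718.6 in germ-free samples. Of 5 measured exocrine pancreas markers, 3 lay under the signal filter. The summed signal of all 5 was 276 and 727 in conventionalized and 820 and 406 in germ-free samples.

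None of the 10 genes passed the test between conventionalized and germ-free Paneth cells. Intensities were compared on a log2(signal + 32) scale with limma over all probe sets whose mean signal exceeded 113.9, the median of the table, with a threshold of 0.05 on the Benjamini-Hochberg adjusted p. The first probe set of all 10 genes and 13 of their 16 probe sets were tested, and 0 were called by limma, while 1 gene, Mt2, had an unadjusted p under 0.05. Among all probe sets, limma called 0.333% in either direction (0.12% higher and 0.213% lower) and 5.13% had an unadjusted p under 0.05. At the first probe sets, 8 of 10 genes had a log2 difference below 0 and 2 above 0. The median was -0.32, beside a median of 0.00022 over the 12113 genes tested, of which 6054 lay below 0. Because 2 arrays against 2 can be split in 3 ways only, an exact permutation test of a single gene could not go below p = 0.333 (two-sided).

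**Figure D1:**
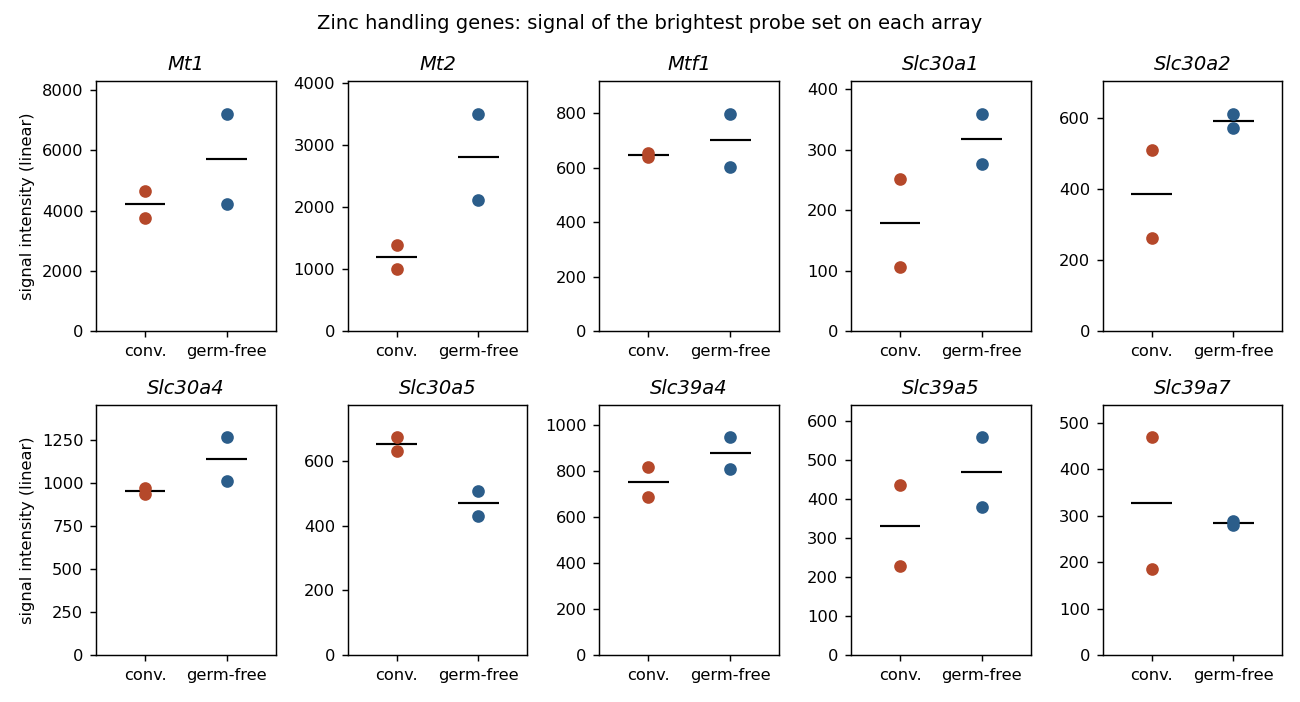
Linear signal intensity (vertical axis, from 0, own scale per gene) of the first probe set of each of the 10 genes. Each point is 1 array, with conventionalized on the left and germ-free on the right, and the bar is the mean of 2 arrays. For Mt2 both conventionalized points, at 996 and 1384, lie below both germ-free points, at 2107 and 3502, and for 5 of the 10 genes the groups overlap.

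The groups did not overlap for 5 of the 10 genes and for 31.1% of all probe sets tested. Both conventionalized arrays lay below both germ-free arrays for Mt2, Slc30a1, Slc30a2 and Slc30a4, as they did for 15.3% of all probe sets tested. Both lay above for Slc30a5, as for 15.8% of all. Conventionalized replicate 1 gave the lowest signal of the 4 arrays for 7 of the 10 genes and for 22.7% of all probe sets tested. Without that array the log2 difference was -0.30 for Slc30a1, -0.21 for Slc30a2 and -0.08 for Slc39a5, each nearer to 0 than with all 4 arrays, and that of Mt2 was -0.96.

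The metallothioneins are described first, with the sequences before their annotated starts, because Mt1, Mt2 and Slc30a1 are textbook targets of Mtf1. Sequences are from RefSeq (GRCm38.p6), 5′ to 3′, and cover the 250 bases before the start. Capitals mark each match on either strand to TGCACNC or TGCGCNC, the core of the metal response element, and no match overlaps another. The Mt1 stretch is chr8:94178839-94179088 on the plus strand, the Mt2 stretch chr8:94172368-94172617 on the plus strand, and the Slc30a1 stretch chr1:191906531-191906780 on the plus strand.
Mt1: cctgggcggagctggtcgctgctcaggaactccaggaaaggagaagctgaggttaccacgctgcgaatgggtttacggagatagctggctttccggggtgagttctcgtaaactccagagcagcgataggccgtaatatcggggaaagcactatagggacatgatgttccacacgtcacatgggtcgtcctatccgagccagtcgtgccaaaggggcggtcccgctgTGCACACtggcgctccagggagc
Mt2: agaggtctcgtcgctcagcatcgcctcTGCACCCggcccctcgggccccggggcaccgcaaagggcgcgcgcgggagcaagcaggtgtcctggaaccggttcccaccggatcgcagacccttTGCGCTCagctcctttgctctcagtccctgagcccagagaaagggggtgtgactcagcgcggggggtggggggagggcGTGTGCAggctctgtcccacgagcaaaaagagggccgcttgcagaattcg
Slc30a1: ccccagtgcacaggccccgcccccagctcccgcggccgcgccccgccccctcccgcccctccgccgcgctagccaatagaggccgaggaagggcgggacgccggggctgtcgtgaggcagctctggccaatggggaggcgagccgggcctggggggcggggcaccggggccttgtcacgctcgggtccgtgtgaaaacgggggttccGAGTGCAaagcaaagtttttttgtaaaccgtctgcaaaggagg

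In the window of 250 bases before and 50 after the annotated start, Mt2 held 4 matches and Mt1 held 3. For Mt1, 1 match lies before the annotated start, and 2 lie just after it within a stretch of 25 bases, chr8:94179091-94179115.
Mt1, after the start: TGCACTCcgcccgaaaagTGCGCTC
Among 27025 genes in the RefSeq promoter table, 28.2% had at least 1 match in a listed window of this size, 2.27% had at least 3 and 0.588% at least 4. Slc30a4 had 3 matches, Slc30a1 and Slc30a2 had 2 each, Slc30a5 and Slc39a5 had 1 each, and Mtf1 and Slc39a7 had 0. Promoters were found for 9 of the 10 genes, not for Slc39a4. Matches describe these letters in this window and do not show that the factor binds there. Their counts depend on where RefSeq sets the start, and where transcription begins in these cells was not tested.

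Mt2 (gene identifier 17750) had signals of 995.7 and 1383.9 on the conventionalized arrays, against 2107.0 and 3501.8 on the germ-free arrays. Both conventionalized values lay below both germ-free values. The means were 1190 ± 274 in conventionalized and 2804 ± 986 in germ-free samples (SD, n = 2 arrays each). The log2 difference was -1.19 ± 0.42 (SE), with a 95% interval of -2.01 to -0.37, a ratio of 0.439. The limma adjusted p was 0.375 and the unadjusted p 0.0045, so the difference did not pass over all probe sets. Without a variance trend in the fit, the unadjusted limma p was 0.058. Of all probe sets tested, 5.14% were at least 2-fold lower with groups that did not overlap, and 3.35% were lower with an unadjusted p under 0.05. In bulk captured samples, fewer cells of a type and less RNA per cell cannot be told apart.

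Mt1 (gene identifier 17748; the suffix _s_at of this probe set marks probes that can bind related transcripts) had signals of 3765.3 and 4655.5 in conventionalized samples, against 4229.0 and 7219.2 in germ-free samples. The groups overlapped, and germ-free replicate 2 stood above the other 3 arrays. That is a log2 difference of -0.40 ± 0.48 (95% interval -1.33 to 0.54; limma adjusted p = 0.999). It was -0.014 when germ-free replicate 2 was left out and -0.78 when germ-free replicate 1 was. A second, dim Mt1 probe set was left out of the test by the signal filter. Its values were 11.4 and 106.3 in conventionalized samples, against 173.2 and 101.4 in germ-free samples.

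Mt1 and Mt2 are adjacent genes, with 0 coding genes between them in the RefSeq order, and both had their highest signal on germ-free replicate 2 and their lowest on conventionalized replicate 1. The log2 signal of Mt1 minus that of Mt2 was 1.89 and 1.73 on the conventionalized arrays, against 0.99 and 1.04 on the germ-free arrays. The gap between group means was 0.79, while duplicates differed by 0.16 in conventionalized and 0.04 in germ-free samples. The relation was chosen after the values were seen, and the duplicates are aliquots of 1 pool, so it describes these 4 arrays and was not tested between groups. Mt1 and Mt2 themselves had overlapping 95% intervals.

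Markers of other cells of the captured area are given beside the metallothioneins, since enterocytes and other crypt cells also make these proteins. Of 10 enterocyte markers 9 were measured, and 7 of the 9 had a log2 difference below 0 with Apoc3, an apolipoprotein of absorbed fat, called lower at -2.16 (limma adjusted p = 0.0033). The 2 above 0 were Fabp2 at 1.47 ± 1.03, with both conventionalized values higher, and Apoa4 at 0.59 ± 0.81, with overlapping groups. The median of the 9 was -0.52, and with 1 array left out it was 0.12 (no conventionalized replicate 1), -1.40 (no conventionalized replicate 2), -0.48 (no germ-free replicate 1) and -0.043 (no germ-free replicate 2). Their summed signal was 107173 and 255271 on the conventionalized arrays, against 90544.3 and 166621 on the germ-free arrays, and no marker was at 0. Of the 9, 3 had an unadjusted limma p under 0.05. Goblet cell markers, 6 in all, stood at a median of 0.32 (-0.097 after quantile normalization, 0.15 with germ-free replicate 1 left out), and 0 were called by limma, with 1 at an unadjusted p under 0.05. The 6 enteroendocrine markers had a median of -0.33 (-0.081 without conventionalized replicate 2, -0.49 without conventionalized replicate 1), with summed signals of 3267 and 3251 in conventionalized and 3924 and 5597 in germ-free samples. Limma called 0 of them, with 2 at an unadjusted p under 0.05. The 6 smooth muscle and fibroblast markers had summed signals of 3095 and 4077 in conventionalized and 5681 and 4856 in germ-free samples. Of these, 5 were tested, with a median of -0.32 (-0.0038 without conventionalized replicate 1, -0.53 without germ-free replicate 2). Limma called 0 of the 5, with 1 at an unadjusted p under 0.05. Of 4 plasma and B cell markers 3 were tested, and Igha, the constant region of immunoglobulin A, was called higher at 2.44. Of the 3, 2 had an unadjusted limma p under 0.05. The list's summed signals were 7546 and 9384 in conventionalized and 2001 and 2241 in germ-free samples. Limma called 0 of the 2 tested macrophage and granulocyte markers, with 1 at an unadjusted p under 0.05. Both lay above 0, with a median of 0.78 (0.60 without conventionalized replicate 1, 0.95 without conventionalized replicate 2). The 5 markers of that list had summed signals of 18820 and 17072 in conventionalized and 7779 and 8872 in germ-free samples. Of the 4 stem cell markers, limma called 0, with 0 at an unadjusted p under 0.05, and 2 lay above 0 and 2 below. The part of these cells in the metallothionein values was not tested.

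Mtf1, the zinc sensor itself, had signals of 654.7 and 639.1 in conventionalized samples, against 798.7 and 603.8 in germ-free samples. The conventionalized values fell inside the germ-free range. Its log2 difference came to -0.10 ± 0.44 (95% interval -0.96 to 0.76). Mtf1 was covered by 5 probe sets. The other two that were tested differed by 0.11 ± 0.53 and -0.15 ± 0.65, so all 3 lay near 0 with standard errors wider than the differences. The remaining pair lay under the filter, at 104.0 and 164.9 in conventionalized against 89.1 and 43.9 in germ-free samples, and at 42.0 and 14.8 against 8.2 and 28.9.

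**Figure D2:**
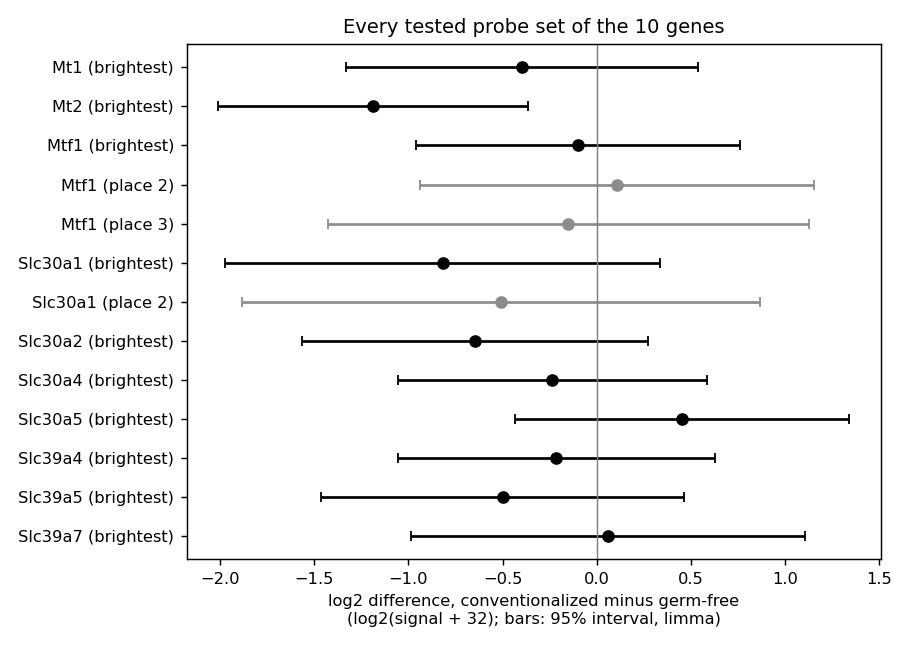
Log2 difference, conventionalized minus germ-free (horizontal axis, on the log2(signal + 32) scale), for each of the 13 tested probe sets, with first probe sets in black and further ones in grey. Points are limma estimates and bars 95% intervals that reflect amplification and array error. The interval of Mt2, from -2.01 to -0.37, leaves out 0, and those of the 12 other probe sets include it.

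Slc30a1, the plasma membrane exporter that protects cells from zinc excess, had signals of 105.3 and 251.0 in conventionalized samples, against 359.4 and 276.9 in germ-free samples. Both conventionalized values were lower, the second by a small margin. The first probe set thus differed by -0.82 ± 0.59 on the log2 scale (95% interval -1.97 to 0.33; limma adjusted p = 0.999). Its second probe set gave 40.1 and 368.2 in conventionalized samples, against 157.2 and 276.1 in germ-free samples. There the conventionalized duplicates enclosed both germ-free values, so the 2 probe sets disagree on whether the groups overlap. The log2 difference of the second was -0.51 ± 0.70.

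Slc30a2 loads zinc into secretory vesicles and, in mice, is needed for normal zinc storage in Paneth cell granules. Its signals were 261.4 and 509.2 in conventionalized samples, against 612.6 and 571.8 in germ-free samples. The germ-free duplicates lay close together and above both conventionalized values, whose gap was wider than the gap between the groups. Slc30a2 differed by -0.65 ± 0.47 on the log2 scale (95% interval -1.57 to 0.27; limma adjusted p = 0.999). Pancreatic acinar cells also express Slc30a2. Of the 2 exocrine pancreas markers tested, the elastase Cela1 read 146.6 and 232.4 in conventionalized and 396.9 and 238.7 in germ-free samples (log2 difference -0.65 ± 0.58), and the trypsinogen Prss2 read 17.2 and 321.4 in conventionalized and 183.1 and 73.8 in germ-free samples (-0.19 ± 1.03). Neither was called, and the part of pancreatic RNA in the Slc30a2 values was not tested.

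Slc30a4, a vesicle transporter whose loss leaves mouse milk short of zinc, had signals of 938.5 and 972.9 in conventionalized samples, against 1009.6 and 1265.5 in germ-free samples. The groups did not overlap, but the nearest values were separated by less than the germ-free duplicates. Slc30a4 differed by -0.24 ± 0.42 on the log2 scale (95% interval -1.06 to 0.59).

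Slc30a5, which supplies zinc to the early secretory pathway and to alkaline phosphatases, was the member with the highest log2 difference. Its signals were 629.9 and 672.6 in conventionalized samples, against 430.9 and 507.4 in germ-free samples. Both conventionalized values were higher, and the gap between the groups was wider than that between either pair of duplicates. On the log2 scale Slc30a5 differed by 0.45 ± 0.45 (95% interval -0.44 to 1.34; limma adjusted p = 0.999).

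Among the importers, Slc39a4 carries dietary zinc into enterocytes across the apical membrane and is the gene mutated in the human zinc deficiency acrodermatitis enteropathica. In mice its loss from the gut epithelium disturbs Paneth cells early. Its signals were 687.9 and 816.7 in conventionalized samples, against 808.6 and 946.3 in germ-free samples. The groups overlapped narrowly, and the log2 difference was -0.21 ± 0.43 (95% interval -1.05 to 0.62).

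Slc39a5, an importer of the basolateral membrane of enterocytes and of pancreatic acinar cells, had signals of 227.8 and 434.0 in conventionalized samples, against 557.3 and 378.7 in germ-free samples. The groups overlapped. On the log2 scale Slc39a5 differed by -0.50 ± 0.49 (95% interval -1.46 to 0.46).

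Slc39a7 releases zinc from the endoplasmic reticulum into the cytosol and is needed for the upkeep of the intestinal epithelium in mice. Its signals were 469.3 and 184.7 in conventionalized samples, against 279.4 and 289.7 in germ-free samples. The probe set of Slc39a7 also carries the suffix _s_at, so its probes can bind related transcripts. The conventionalized duplicates lay on either side of the closely matched germ-free values. The log2 difference of 0.06 ± 0.53 (95% interval -0.99 to 1.10) had no settled sign, since it was -0.55 without conventionalized replicate 1 and 0.66 without conventionalized replicate 2.

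**Figure D3:**
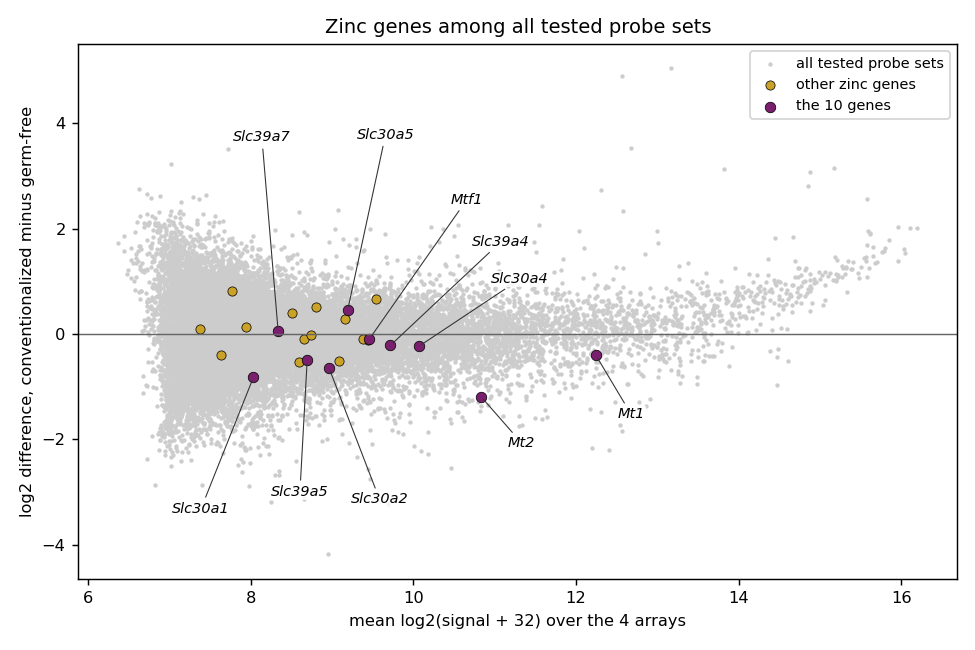
Log2 difference, conventionalized minus germ-free (vertical axis), against mean log2(signal + 32) over the 4 arrays (horizontal axis) for the 22491 probe sets tested (grey), the 10 genes (purple, named) and 14 other zinc genes (yellow). Mt2 lies lowest of the 10 genes, at -1.19, and the other 9 lie between -0.82 and 0.45.

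The remaining zinc genes lay evenly on both sides of 0. The list held 19 further metallothioneins and transporters, of which 14 were tested and 5 lay under the filter. Limma called 0 of the 14, and 0 had an unadjusted p under 0.05. Of the 14, 7 were above 0 and 7 below, with a median of 0.03 (-0.058 without germ-free replicate 2, 0.14 without conventionalized replicate 1). Slc39a8, a zinc and manganese importer, had the highest mean signal of the list, at 1284.8 and 629.3 in conventionalized samples, against 557.5 and 560.3 in germ-free samples (log2 difference 0.66 ± 0.43). Both conventionalized values were higher, with the gap set mainly by replicate 1. Slc30a7, a transporter of the Golgi, differed by -0.11 ± 0.44, Slc30a9 by -0.10 ± 0.44 and Slc39a1, a plasma membrane importer, by 0.29 ± 0.45.

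Genes of other metals, and genes of the response to glucocorticoids and acute phase cytokines, gave no call either. Of 13 tested genes of iron and copper handling, limma called 0, with 2 at an unadjusted p under 0.05, and the median was 0.02. That median was -0.24 with quantile normalization and, with 1 array left out, lay between -0.26 (no germ-free replicate 1) and 0.19 (no germ-free replicate 2). The 3 with the highest mean signal were Sod1, the copper and zinc superoxide dismutase, at 0.74 ± 0.81, the ferritin subunit Fth1 at 0.02 ± 0.69 and the transferrin receptor Tfrc at 0.17 ± 0.43. Of 12 glucocorticoid and acute phase response genes, 3 lay under the filter. Limma called 0 of the 9 tested, with 0 at an unadjusted p under 0.05, and 7 were above 0 with a median of 0.32. That median was -0.077 with germ-free replicate 2 left out and 0.70 with germ-free replicate 1 left out. Socs3, a feedback inhibitor induced by acute phase cytokines, had signals of 1683.0 and 1714.2 in conventionalized samples, against 1234.3 and 869.7 in germ-free samples (log2 difference 0.70 ± 0.42). Fkbp5, a glucocorticoid-induced chaperone, had 1043.4 and 890.3 in conventionalized samples, against 600.6 and 581.1 in germ-free samples (0.68 ± 0.43). The kinase Sgk1 differed by -0.30 ± 0.42. For Socs3 and Fkbp5 both conventionalized values were higher, as for 15.8% of all probe sets tested. The part of glucocorticoids and acute phase cytokines in the metallothionein values was not tested.

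Genes with a pattern most like that of Mt1 were sought by the distance between log2 values centred on each gene's mean over the 4 arrays. The nearest 5 were Sec24b, Stx7, Myh9, Anks4b and Gng12, at distances of 0.069 to 0.085. Mt2 lay at 0.80, and 2740 genes were nearer to Mt1 than Mt2 was. With 4 arrays such a likeness mostly records which array was high, here germ-free replicate 2.

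**Figure D4:**
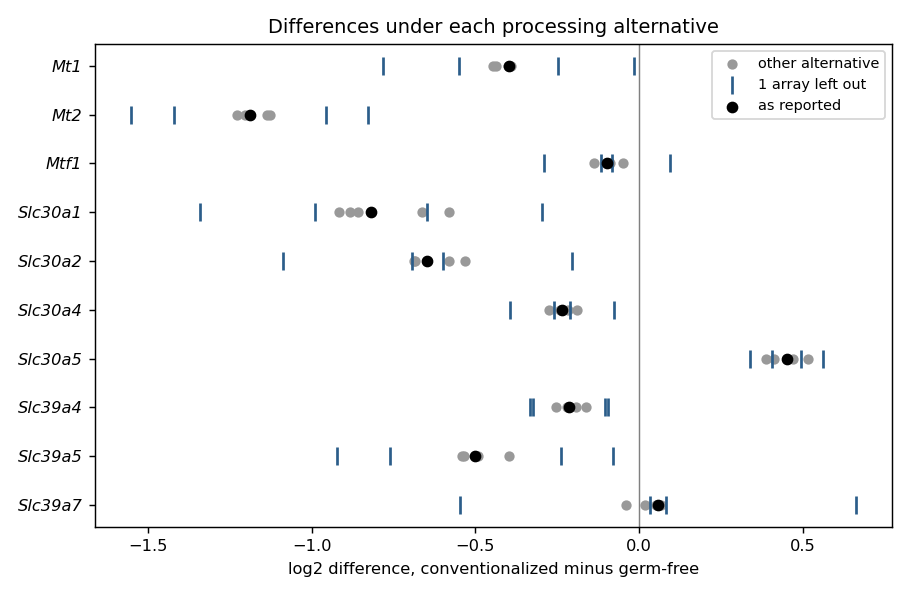
Log2 difference, conventionalized minus germ-free (horizontal axis), of the first probe set of each gene as reported (black), with 1 array left out (blue bars) and under the other processing alternatives (grey). Mt2 stayed between -1.55 and -0.83 and Slc30a5 between 0.34 and 0.56, whereas Mtf1 and Slc39a7 crossed 0.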

How the data were processed

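Expression was measured on 4 Affymetrix Mouse430_2 arrays, the chip type per the file headers. The deposited values are linear signal intensities computed by the authors, 1 for each probe set on each array. Their mean, with the top and bottom 2% trimmed, came to 250 for every array, and this scaling by the authors was kept. The software is not given in the sources used here. Other text fields deposited with each array were read for batches only: 1 chip lot and 1 scanner day covered all arrays. Present calls were not used, so dim probe sets have no detection call.

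Intensities were turned into log2(intensity + 32) (the added 32 makes differences of dim probe sets look smaller). Controls (64) and probe sets at or under the median mean signal were left out. The test was limma 3.58.1 under R 4.3.3 (lmFit and eBayes, with a variance trend), two-sided, with Benjamini-Hochberg adjustment over the 22491 probe sets. The prior degrees of freedom were infinite beside 2 residual ones, so a standard error reflects all probe sets of similar signal rather than the gene's own. The number of arrays limits the precision. The fit was tested on simulated data with independent noise for each array. Such data do not model an array that stands apart or aliquots of 1 pool. Gene names come from the platform annotation of 2016, and all 10 gene identifiers matched a RefSeq table (GRCm38.p6); 34958 probe sets named 1 gene, 932 several and 9211 none. Named genes were all members and, of the further zinc, iron and copper, and glucocorticoid lists, those called or otherwise the 3 or 4 with the highest mean. Of the cell type markers, those called were named. Both tested pancreas markers and the 2 enterocyte markers above 0 were chosen after the values were seen. The members, lists and tests were chosen with earlier results of these data known. Alternatives changed the pseudocount, filter, scaling, variance trend, replicate block, probe set summary or left out 1 array.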

Additional observations from a re-analysis of the deposited data

How the results depend on the processing

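Alternative settings were a smaller and a larger pseudocount, no filter, a filter that kept the brightest 25%, no variance trend, quantile normalization, median centring, the replicate number as a block, the mean over a gene's probe sets, each array left out in turn and, chosen after seeing the data, crossed replicate numbers. Limma called no zinc gene under 13 of these 14 settings, the exception being the crossed numbers. Of 139 values of single genes under them, 136 kept their direction and 3 changed sign. The count overstates stability. The filter, variance trend and block settings leave a gene's log2 difference unchanged, so their values could not change sign. The mean over a gene's probe sets likewise changes nothing for a gene with 1 tested probe set. With 1 array left out, Mtf1 ran from -0.29 to 0.095 and Slc39a7 from -0.55 to 0.66. With quantile normalization Slc39a7 was -0.041. The cause of these sign changes was not tested. The median of the 10 genes lay between -0.44 and -0.20 with 1 array left out. The limma adjusted p of Mt2 lay between 0.245 and 1.00 under the 13 settings, and its log2 difference between -1.55 and -0.83. Slc30a1 was not tested among the brightest 25%.

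The count of calls over all probe sets, 75, came to 33 under quantile normalization, 27 under median centring and 0 with no variance trend, where limma gave 975 probe sets with an unadjusted p under 0.05. With 1 array left out, it lay between 41 (no germ-free replicate 2) and 213 (no conventionalized replicate 1). The labels number the aliquots 1 and 2 in each group, but nothing in them pairs aliquots across groups, and deviations of same-numbered arrays from their group means correlated at -0.13. With the replicate number as a block, 30 probe sets and 0 zinc genes were called. With the numbers crossed, 228 probe sets and 1 zinc gene, Mt2, were called. Signal over background could not be judged without detection calls, so values near the pseudocount of 32 or below give no firm size of change.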

Other observations

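Slc39a10, an importer outside the 10 genes that was picked after its values were seen, fell just under the signal filter. Its brightest probe set read 157.9 and 247.0 in conventionalized samples, against 12.6 and 34.5 in germ-free samples. Both conventionalized values were higher, as for 15.8% of the probe sets that passed the filter. The lower germ-free signal lay under the pseudocount of 32, which therefore sets part of the size. Without the filter, the log2 difference was 2.08 ± 0.98 with a limma adjusted p of 1.00 and an unadjusted p of 0.033. Its second probe set read 152.0 and 17.5 in conventionalized samples, against 25.5 and 7.2 in germ-free samples, so the groups overlapped there. The pattern was not particular to Slc39a10. Of the other listed zinc genes under the filter, Mt4 and Slc39a2 also had both conventionalized values higher. For Slc30a8 the groups overlapped, and for Slc39a12 both conventionalized values were lower. In the liver of mice, zinc and Mtf1 are known to lower Slc39a10 transcription. Their part in these Slc39a10 values was not tested.

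Slc11a2, the apical iron importer, read 161.1 and 119.7 in conventionalized samples, against 294.7 and 297.1 in germ-free samples, while the basolateral iron exporter Slc40a1 read 229.1 and 424.1 in conventionalized samples, against 108.6 and 66.8 in germ-free samples. The conventionalized values lay below both germ-free values for Slc11a2, as for 15.3% of all probe sets tested. They lay above for Slc40a1, as for 15.8% of all. Neither gene passed the test (limma log2 differences -0.94 ± 0.62 and 1.55 ± 0.70, adjusted p = 0.999 and 0.838). Atox1, a copper chaperone, read 1261.4 and 3440.8 in conventionalized samples, against 759.2 and 878.2 in germ-free samples (1.32 ± 0.42, limma adjusted p = 0.199), whereas the 3 other tested Atox1 probe sets differed by 0.04, -0.17 and 0.05. These 3 genes were also picked after their values were seen.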
